A study of Mus musculus with 6 samples.

Results

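The 33 genes described here encode enzymes of cholesterol synthesis and proteins that regulate, carry, export, store or remove sterols. They were chosen by name, and each was read at the probe set of its symbol with the highest mean signal among those of 6 mouse brain microarrays. Of the 33, 30 had such a probe set and all 30 passed the filter on low signal. Acat2, Nr1h2 and Soat1 have no probe set under their own name in the annotation used here. The list does not hold every enzyme of the pathway.

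There was 1 array per genotype, each from 1 frontal cortical lobe of an untreated mouse aged 21 days, on a mixed C57BL/6 and 129 background and labelled male. A cross of mice heterozygous for both Vldlr and Apoer2 gave a wild-type littermate (WT), a knockout of Vldlr, a knockout of Apoer2 and a double knockout that lacks both receptors. The Dab1 knockout and the Reln knockout came from matings of their own, and no wild-type littermate of those matings was analysed here. The labels used here give neither the deleted part of each gene nor a cell type, and the mutants are treated as lacking the gene throughout. Vldlr and Apoer2 (gene symbol Lrp8) are lipoprotein receptors that bind reelin, the protein made from Reln, and Dab1 is the adaptor protein that passes the signal on within it. The 3 reeler models of the series title are the knockouts of Dab1, of Reln and of both receptors.

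Cells make cholesterol from acetyl-CoA through the mevalonate steps to squalene, and then through lanosterol to cholesterol. When sterol in the endoplasmic reticulum is low, the protein Scap escorts SREBP transcription factors to the Golgi for activation, and the Insig proteins hold Scap back when sterol is high. The brain makes its own cholesterol, much of it for myelin. Astrocytes export it on apolipoprotein E particles, which bind receptors of the LDL receptor family, and neurons remove it by hydroxylation. The question put to the data was whether arrays that lack a lipoprotein receptor differ in these transcripts.

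The values are signal intensities, and a level is compared only between arrays at the same probe set. The 27 Bacillus control probe sets read at most 28.4 to 39.6 per array. The member with the lowest mean signal, Nr1h3, averaged 112.8 against a filter of 89.0. The arrays bore out the loss of Reln (79.9 on the Reln knockout array against 1498 or more elsewhere) and of Lrp8 (4.2 and 13.7 against 342.4 or more). Vldlr read 187.3 and 185.6 on the arrays that lack it against 357.6 or more, while Dab1 read 478.5 on the Dab1 knockout array against 516.4 or more. A probe set outside the deleted part checks nothing. The X-linked RNA Xist was high, at 3368 or more, on all arrays but that of the Apoer2 knockout, and the Y-linked gene Eif2s3y was above 7.7 on that array alone, so 5 arrays go against their male label. Setting those 5 aside leaves 1 array, so values without the Apoer2 knockout array are given instead for Apoe and Clu. They are not given for every other member. Of 8 cortical excitatory neuron markers 6 had a probe set, and none of the 6 was at background. Cerebellar granule cell markers also gave signal, with a summed level of 12235 to 15287 on the WT and single receptor knockout arrays and of 3872 to 5274 on the reeler models. Growth hormone (Gh) read 3705 on the Apoer2 knockout array against at most 32.4 elsewhere.

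Promoter sequence was searched for motifs, and that of 3 picked members is printed. These 3 do not stand for the other members. Windows from RefSeq (assembly GRCm38.p6), which run from 250 bases before to 50 bases after each annotated start, were found for 27 of the 33 members. The SREBP motif TCACNCCAC, searched on both strands, occurred in 1 of the 27 genes (3.70%), Hmgcs1, against 1.44% of 27025 genes. A stricter 10-base form of it, the SRE-1 consensus, and the DR4 repeat that LXR receptors bind, both also searched on either strand, occurred in 0 of the 27, against 0.0999% and 0.0148% of all genes. CCAAT, the box bound by the factor NF-Y, occurred on either strand in 21 of the 27 genes (77.8%), against 41.1% of all genes and 61.4% of the 44 other sterol and lipid genes with a window. A gene can have several windows, and the members have 38 for 27 genes. Counted by window the shares were 57.9% for the members, 56.6% for the other sterol and lipid genes and 37.4% for all. Hmgcs1 is printed as the one member with the SREBP motif, and Idi1 and Sc5d as the members with the widest spread over the arrays. Each line gives the 150 bases up to the annotated start, 5′ to 3′ on the gene's strand. The capitals mark TCACCCCAC or ATTGG, the reverse complement of CCAAT.
Hmgcs1: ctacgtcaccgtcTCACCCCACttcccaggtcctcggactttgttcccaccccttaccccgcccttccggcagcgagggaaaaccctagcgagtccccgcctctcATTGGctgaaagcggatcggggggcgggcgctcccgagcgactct
Idi1: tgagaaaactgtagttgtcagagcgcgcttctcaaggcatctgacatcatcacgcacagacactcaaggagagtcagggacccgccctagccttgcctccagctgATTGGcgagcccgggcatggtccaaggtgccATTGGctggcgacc
Sc5d: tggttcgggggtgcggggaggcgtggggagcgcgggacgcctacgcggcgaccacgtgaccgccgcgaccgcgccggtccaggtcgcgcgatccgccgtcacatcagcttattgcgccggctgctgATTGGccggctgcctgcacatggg
These stretches lie at chr13:119690201-119690350 on the plus strand (Hmgcs1), chr13:8885456-8885605 on the plus strand (Idi1) and chr9:42264301-42264450 on the minus strand (Sc5d). The Hmgcs1 SREBP motif starts 137 bases before the annotated start. ATTGG starts 45 bases before it in Hmgcs1, 45 and 14 bases before it in Idi1, and 24 bases before it in Sc5d. A match is a description of these letters, and no binding was measured.

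Most members differed little among the 6 arrays. The ratio of the highest to the lowest signal was under 1.5 for 22 of the 30 genes. It was smallest for Srebf2, the SREBP that drives sterol synthesis, at 1.12 for the probe set used. It was over 2 for 3 genes, Sc5d (3.73), Idi1 (2.26) and Mvk (2.26). The median range over the arrays was 0.40 on the log2 scale for the members and 0.43 for all 11498 genes kept. A range over 1 on that scale was found for 3 of the 30 members and for 5.72% of all genes.

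**Figure D1:**
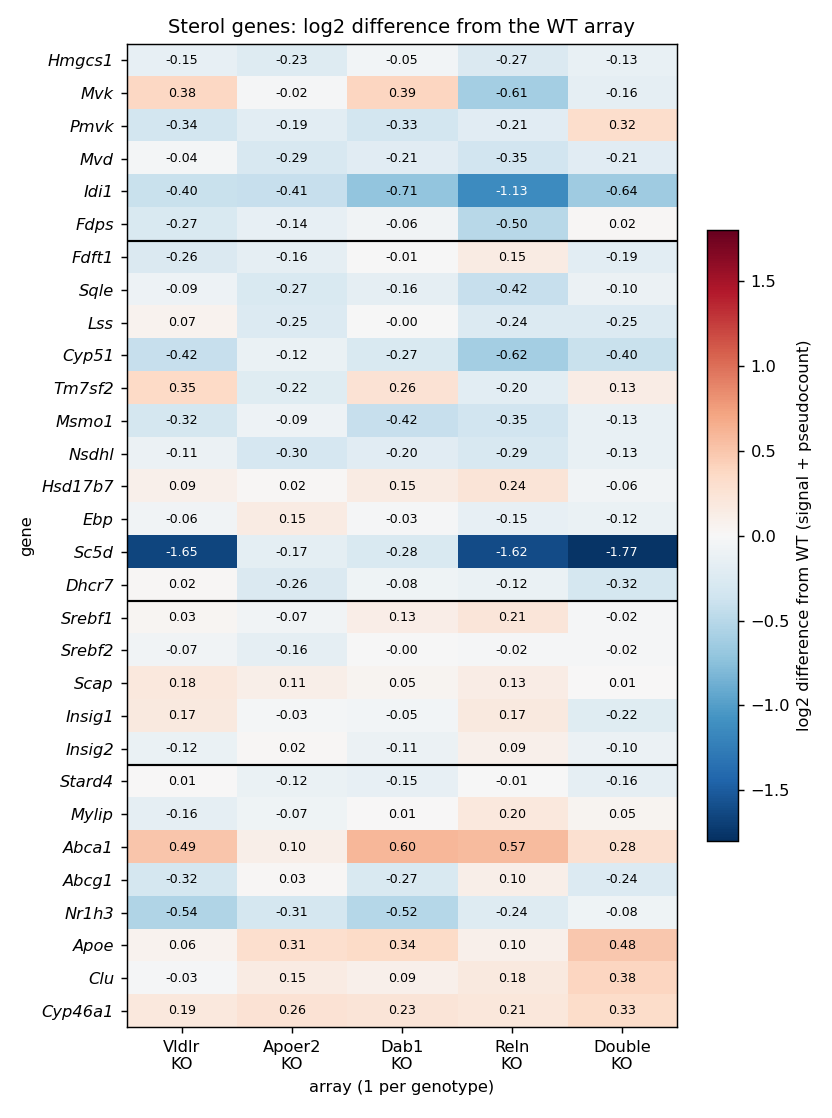
Log2 difference in signal from the WT array for each of the 30 measured genes (vertical axis, grouped by role) on each of the 5 mutant arrays (horizontal axis), by colour. The darkest lower values are those of Sc5d on the Vldlr, Reln and double knockout arrays (-1.65, -1.62 and -1.77) and of Idi1 on the Reln knockout array (-1.13).

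The mevalonate enzymes come first. Idi1, which converts isopentenyl to dimethylallyl diphosphate, read 1059.9 on the WT array, 795.8 on the Vldlr knockout, 790.3 on the Apoer2 knockout, 638.4 on the Dab1 knockout, 468.3 on the Reln knockout and 671.5 on the double knockout. WT was the highest, the single receptor knockouts were close to each other, and all 3 reeler models lay below the other 3 arrays. A second Idi1 probe set read 528.3, 449, 474.2, 396.6, 315.6 and 393 in the same order, again with no overlap between the reeler models and the others. The difference between the 3 reeler models and the other 3 arrays was -0.55 on the log2(signal + 28.1) scale (SE 0.16, limma unadjusted p = 0.00746) and missed the threshold after adjustment over all genes (adjusted p = 0.315).

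Mvk, mevalonate kinase, read 179.8 on WT, 241.9 on the Vldlr knockout, 176.3 on the Apoer2 knockout, 244.1 on the Dab1 knockout, 107.9 on the Reln knockout and 158.3 on the double knockout. Its high arrays were those of the Vldlr and Dab1 knockouts and its low array that of the Reln knockout, so its order followed neither class. At its other probe set the Reln knockout array read 117.9 and WT was the lowest at 106.7. Hmgcs1, the synthase that makes HMG-CoA, read 4740.1, 4270.3, 4040.9, 4577.9, 3938 and 4325.7 in the order WT, Vldlr, Apoer2, Dab1, Reln and double knockout. WT was highest there, and the highest array exceeded the lowest 1.2-fold. Other Hmgcs1 probe sets gave another order: at one WT was the lowest array (2228.8) and the Dab1 knockout the highest (2967.4), and at another the Vldlr knockout was highest (2625.3) and the Reln knockout lowest (1621.6). Pmvk, the next kinase after Mvk, ranged from 197.1 on the Vldlr knockout to 326.8 on the double knockout. Mvd, which makes isopentenyl diphosphate, ranged from 233.2 (Reln knockout) to 303.8 (WT). Fdps, which makes farnesyl diphosphate, ranged from 785.3 (Reln knockout) to 1141.2 (double knockout). For these 3 genes the reeler models overlapped the other arrays.

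Sc5d stood apart among the enzymes from squalene to cholesterol. It encodes the desaturase that makes 7-dehydrocholesterol, near the end of the pathway. Its signal was 781.5 on the WT array, 230.4 on the Vldlr knockout, 689.1 on the Apoer2 knockout, 640.6 on the Dab1 knockout, 235.9 on the Reln knockout and 209.3 on the double knockout. Both arrays that lack Vldlr were low, the Reln knockout, which has both receptors, was equally low, and the other 3 arrays were high. Of all 11498 genes, 101 had a wider range over the arrays.

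In the receptor cross, Sc5d fell by 1.62 on the log2 scale with loss of Vldlr (SE 0.12, interval from -1.91 to -1.34 at 95% confidence, limma adjusted p = 0.00571), lower in both arrays that lack Vldlr than in both that have it. The Vldlr knockout differed from WT by -1.65 and the double knockout from the Apoer2 knockout by -1.60. The double knockout differed from the Vldlr knockout by -0.12, and the departure of the 4 arrays from additive effects of the 2 receptors was 0.05. The call rests on 1 residual degree of freedom and was lost without the WT array (adjusted p = 0.0538), with the mean of all probe sets (-1.04, adjusted p = 0.0561) and in a limma fit of all 6 arrays with the reeler class as a term (-1.25, adjusted p = 1.0). It was lost too with no filter (adjusted p = 0.0628) and with no trend in the prior (adjusted p = 0.134).

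The other Sc5d probe sets gave another order of arrays. One read 590.3 on WT, 283.3 on the Vldlr knockout, 481.9 on the Apoer2 knockout, 240.4 on the Dab1 knockout, 216.1 on the Reln knockout and 325.2 on the double knockout. The next read 245.2, 124.9, 221.6, 138.2, 140.2 and 133.7 in the same order. At both, the Dab1 knockout joined the low arrays, and WT and the Apoer2 knockout alone were high. Their differences with Vldlr loss were -0.76 and -0.73 (limma adjusted p = 0.205 and 0.253 over all probe sets). At the probe set used, the reeler models differed from the other arrays by -0.61 (SE 0.49, limma adjusted p = 0.651), with overlap between the groups.

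**Figure D2:**
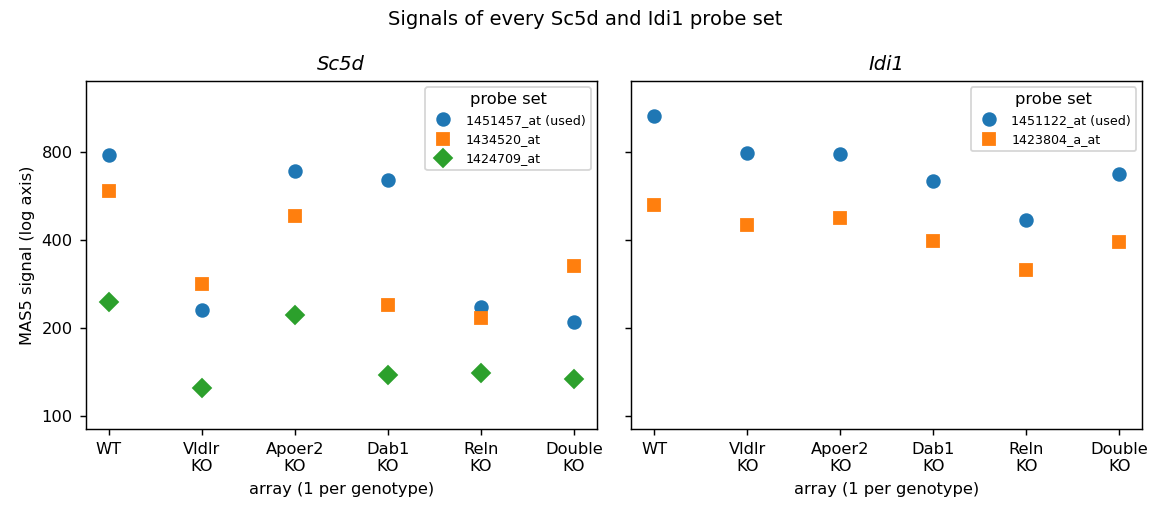
Signal of each Sc5d and Idi1 probe set (vertical axis, log scale) on the 6 arrays (horizontal axis). Points are marked by probe set, with no error bars because each genotype has 1 array. At all 3 Sc5d probe sets the WT and Apoer2 knockout arrays lie above the Vldlr, Reln and double knockout arrays, while the Dab1 knockout array is high at the brightest probe set (640.6) and low at the others (240.4 and 138.2).

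Cyp51, the lanosterol demethylase, read 707.1 on WT, 522.2 on the Vldlr knockout, 648.4 on the Apoer2 knockout, 580 on the Dab1 knockout, 450.7 on the Reln knockout and 530.9 on the double knockout. As for Sc5d, the Vldlr, Reln and double knockouts were the 3 lowest arrays. The difference with Vldlr loss was -0.35 (limma unadjusted p = 0.0147, adjusted p = 0.386). Tm7sf2, a sterol C14 reductase that acts on the product of Cyp51, read 277, 361.8, 233.6, 338.5, 238.3 and 306.6 in the order WT, Vldlr, Apoer2, Dab1, Reln and double knockout. The Vldlr and Dab1 knockouts were highest, and the difference with Vldlr loss was 0.35 (limma adjusted p = 0.443). Fdft1, squalene synthase, read 887.2 on WT, 736.3 on the Vldlr knockout, 788.9 on the Apoer2 knockout, 879.6 on the Dab1 knockout, 985 on the Reln knockout and 773.3 on the double knockout. All 3 arrays that lack a receptor lay below all 3 that have both.

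Of the other enzymes of this stretch, Sqle, squalene epoxidase, ranged from 940 on the Reln knockout to 1266.6 on WT, and Msmo1, the C4 methyl oxidase, from 1134.5 (Dab1 knockout) to 1525.3 (WT), ranges close to that of Fdft1. Lss, which closes squalene epoxide into lanosterol, read 268.8 to 269.4 on the Apoer2, Reln and double knockouts and 323.6 to 341.9 on the other 3 arrays. Dhcr7, the reductase after Sc5d, read 442.1 and 421.8 on the arrays that lack Apoer2 and 489.8 to 542.1 on the others. Nsdhl and Ebp, a C4 dehydrogenase and a sterol isomerase, are the 2 X-linked members. Nsdhl ranged from 518.1 (Apoer2 knockout) to 645.2 (WT) and Ebp from 392.7 (Reln knockout) to 490.6 (Apoer2 knockout). The Apoer2 knockout array is the one with low Xist and high Eif2s3y. Hsd17b7, the 3-keto reductase, ranged from 342.3 on the double knockout to 427.7 on the Reln knockout. At another of its probe sets the Reln knockout was the lowest array (226.4) and WT the highest (271.3). None of these 7 enzymes passed the adjusted threshold in any comparison.

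Of the SREBP regulators, Srebf2 read 996.7 on WT, 949.3 on the Vldlr knockout, 887.8 on the Apoer2 knockout, 995.3 on the Dab1 knockout, 979.8 on the Reln knockout and 981.2 on the double knockout. At the probe sets used it had the narrowest range of the members measured. A second Srebf2 probe set ranged from 721.2 on the double knockout to 910 on the Dab1 knockout. Srebf1, which favours fatty acid synthesis, ranged from 475.4 on the Apoer2 knockout to 584.8 on the Reln knockout, and Scap from 844 on WT to 962.8 on the Vldlr knockout. Insig1 ranged from 400.7 (double knockout) to 534.1 (Reln knockout) and Insig2 from 495 (Vldlr knockout) to 576 (Reln knockout). Of these 5 genes, 0 passed an unadjusted p of 0.05 in any of the 4 limma comparisons, in which 2.26% to 11% of all genes did, so that a count of 0 among 5 says little. Arrays measure transcripts, and the processing that activates SREBP proteins was not measured.

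Among carriers and exporters, Apoe, the main lipid carrier protein of the brain, read 7112.5 on WT, 7416.9 on the Vldlr knockout, 8819.4 on the Apoer2 knockout, 9008.3 on the Dab1 knockout, 7614.1 on the Reln knockout and 9953.6 on the double knockout. The double knockout was highest, and both arrays that lack Apoer2 lay above WT and the Vldlr knockout, though the Dab1 knockout, with both receptors, exceeded the Apoer2 knockout. With loss of Apoer2 the difference was 0.37 (SE 0.08, interval from 0.18 to 0.55, limma unadjusted p = 0.00229), which did not pass adjustment over all genes (adjusted p = 0.490) and was 0.17 after quantile normalization. Clu, clusterin, another lipid carrier, read 4582.7, 4497.4, 5098.7, 4889.3, 5177.4 and 5990.6 in the order WT, Vldlr, Apoer2, Dab1, Reln and double knockout. It too was highest on the double knockout, and the difference with loss of Apoer2 was 0.28 (limma adjusted p = 0.780), or 0.15 after quantile normalization. Without the Apoer2 knockout array, the one with high Gh and Eif2s3y, the double knockout is the 1 array left that lacks Apoer2. It also lacks Vldlr and is a reeler model, so in its differences from WT and the Vldlr knockout, 0.45 for Apoe and 0.40 for Clu, these cannot be told apart.

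Cyp46a1, the neuronal enzyme that hydroxylates cholesterol for removal, read 1898.7 on WT, 2172.4 on the Vldlr knockout, 2275.5 on the Apoer2 knockout, 2227.6 on the Dab1 knockout, 2193.8 on the Reln knockout and 2402.1 on the double knockout. WT was the lowest array and the 5 mutants lay within 2172.4 to 2402.1. The difference with loss of Apoer2 was 0.20 (limma unadjusted p = 0.0486, adjusted p = 0.808). Abca1, which loads cholesterol onto apolipoproteins and is a target of the LXR receptors, read 582.8 on WT, 831.6 on the Vldlr knockout, 627.7 on the Apoer2 knockout, 896.5 on the Dab1 knockout, 876.4 on the Reln knockout and 715.5 on the double knockout. WT and the Apoer2 knockout were the 2 lowest arrays. A second probe set of Abca1 read 264.2 on WT and 297.9 on the Vldlr knockout, and the dimmest read 123.9 on WT and was lowest on the double knockout (120). At the brightest its difference was 0.34 with loss of Vldlr (limma adjusted p = 0.418), which was 0.17 with the mean of all probe sets and 0.14 in the fit of all 6 arrays, and 0.28 between reeler models and the other arrays (adjusted p = 0.510).

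**Figure D3:**
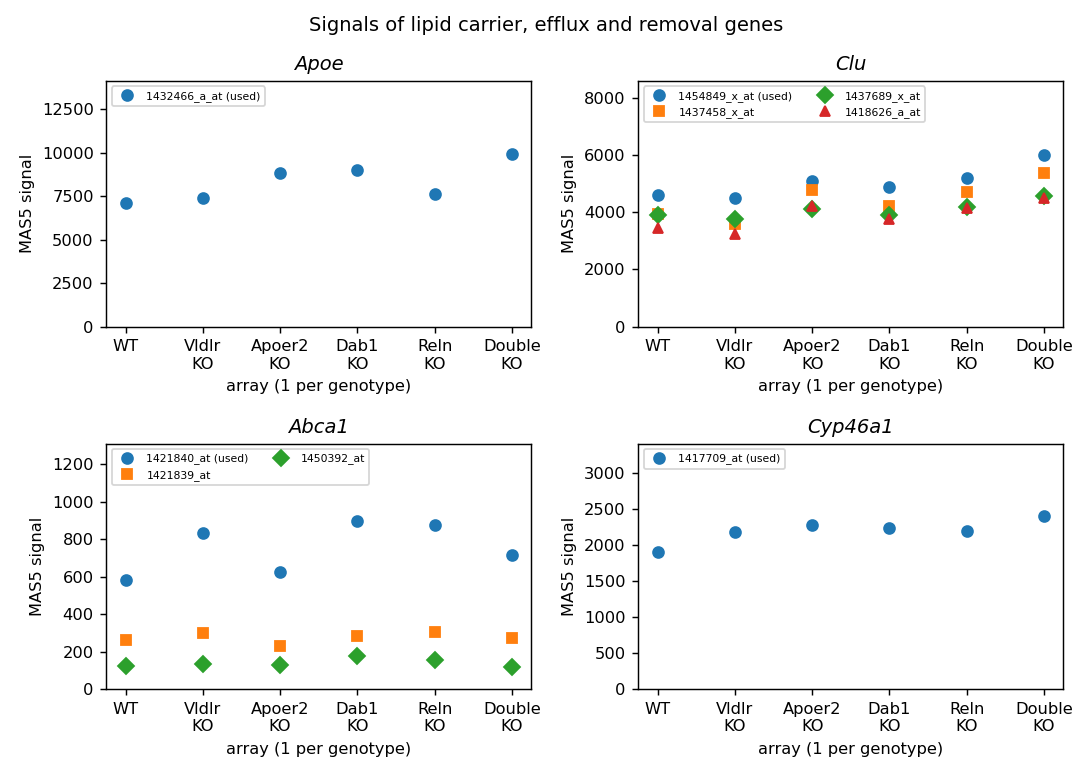
Signal of each probe set of Apoe, Clu, Abca1 and Cyp46a1 that passed the filter (vertical axes, from 0) on the 6 arrays (horizontal axes). Each point is 1 probe set on 1 array, with no error bars because each genotype has 1 array. At the probe sets used, Apoe, Clu and Cyp46a1 are highest on the double knockout array (9953.6, 5990.6 and 2402.1). Abca1 is lowest there on WT (582.8) and the Apoer2 knockout (627.7). Its other probe sets are lowest on the Apoer2 knockout (232.5) and on the double knockout (120).

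Abcg1, another exporter and LXR target, read 637.7, 504.4, 650.6, 525.1, 686.1 and 535.9 in the order WT, Vldlr, Apoer2, Dab1, Reln and double knockout. The Vldlr, Dab1 and double knockouts were low at that probe set, whereas at its second probe set WT was the lowest array (177.4) and the Reln knockout the highest (300.8). Nr1h3, the LXR-alpha receptor, ranged from 88.5 on the Vldlr knockout to 141.3 on WT. Stard4, a carrier of cholesterol within the cell, ranged from 355.3 to 402.3. Mylip, the ubiquitin ligase that marks lipoprotein receptors for degradation, read 539.2, 616.9 and 552.9 on the Dab1, Reln and double knockouts and 475.7 to 534.9 on the other arrays. Its difference of 0.16 between the classes did not pass (limma adjusted p = 0.554).

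The comparison of most direct bearing on the question set the 3 arrays that lack a receptor against the 3 that have both. The groups are not balanced for the reeler class. The double knockout is the 1 reeler model in the first group, while the second holds the Dab1 and Reln knockouts, from matings of their own. None of the 30 members passed an adjusted p of 0.05, and neither did any other gene (0% of 11498). Vldlr and Lrp8 did not pass either, each being lost on only part of the first group. A count of 0 members therefore says little about small differences. At an unadjusted p of 0.05 limma called 1 member, Fdft1 (-0.25, SE 0.09, unadjusted p = 0.0274, adjusted p = 1.0), against 2.26% of all genes. Fdft1 was also the only member whose groups did not overlap, against 6.57% of all genes and 3.16% on the lower side. The median difference was -0.03 over the 30 members and 0.01 over all genes, with 13 members above and 17 below 0. For the 17 synthesis enzymes it was 0.0045, and it was -0.17 when WT alone was the reference within the receptor cross. All 10 granule cell markers kept were above 0 (median 0.37), with 0 at an unadjusted p of 0.05 by limma. Their part in the sterol genes was not tested.

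Loss of each receptor was then estimated within the cross, where 2 arrays lack the receptor and 2 have it. For Vldlr, limma called 1 of 30 members at an adjusted p of 0.05, Sc5d, and 0.0696% of all genes, 0.0435% on the lower side. At an unadjusted p of 0.05 it called 6 members, against 10.2% of all genes. Sc5d, Cyp51, Idi1 and Abcg1 were lower and Abca1 and Tm7sf2 higher, but Idi1 (-0.31) turned to 0.037 in the fit of all 6 arrays with the reeler class as a term. The groups did not overlap for 9 members, against 41.8% of all genes. Of these members 2 were higher and 7 lower, against 21.6% and 20.2% of all genes. The median over the members was -0.0014. In the same comparison all 10 granule cell markers kept were lower at an unadjusted p of 0.05 (median -1.16). From WT, these markers differed by a median of -0.33 on the Vldlr knockout and of -2.01 on the double knockout. The 4 choroid plexus markers kept were lower with no overlap (median -0.36), and the list's summed level over its 8 markers with a probe set was 8906 on WT, 5942 on the Vldlr knockout, 8710 on the Apoer2 knockout and 7795 on the double knockout. The part of these cells in the sterol genes was not tested.

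For Apoer2, limma called 0 of 30 members at an adjusted p of 0.05 and 0.0348% of all genes. At an unadjusted p of 0.05 it called 5 members, against 6.17% of all genes. Apoe, Clu and Cyp46a1 were higher and Idi1 (-0.32, unadjusted p = 0.0149) and Dhcr7 (-0.30, unadjusted p = 0.0335) lower, but Idi1 turned to 0.027 in the fit of all 6 arrays. Of the 10 granule cell markers, 8 were lower at that threshold too (median -0.84), and their part was not tested. From WT, these markers differed by a median of -0.06 on the Apoer2 knockout (4 above, 6 below). On the double knockout, which also lacks Vldlr, the median was -2.01 (0 above, 10 below). The fitted difference in these markers thus came largely from the double knockout array. The groups did not overlap for 13 members, against 30.4% of all genes. Of these members 3 were higher and 10 lower, against 16.6% and 13.7% of all genes. The median was -0.14 over the synthesis enzymes, 13 of 17 being below 0, and 0.07 over the 8 measured genes of transport, efflux and removal. With 1 residual degree of freedom, small differences in either direction were not detectable in this cross.

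**Figure D4:**
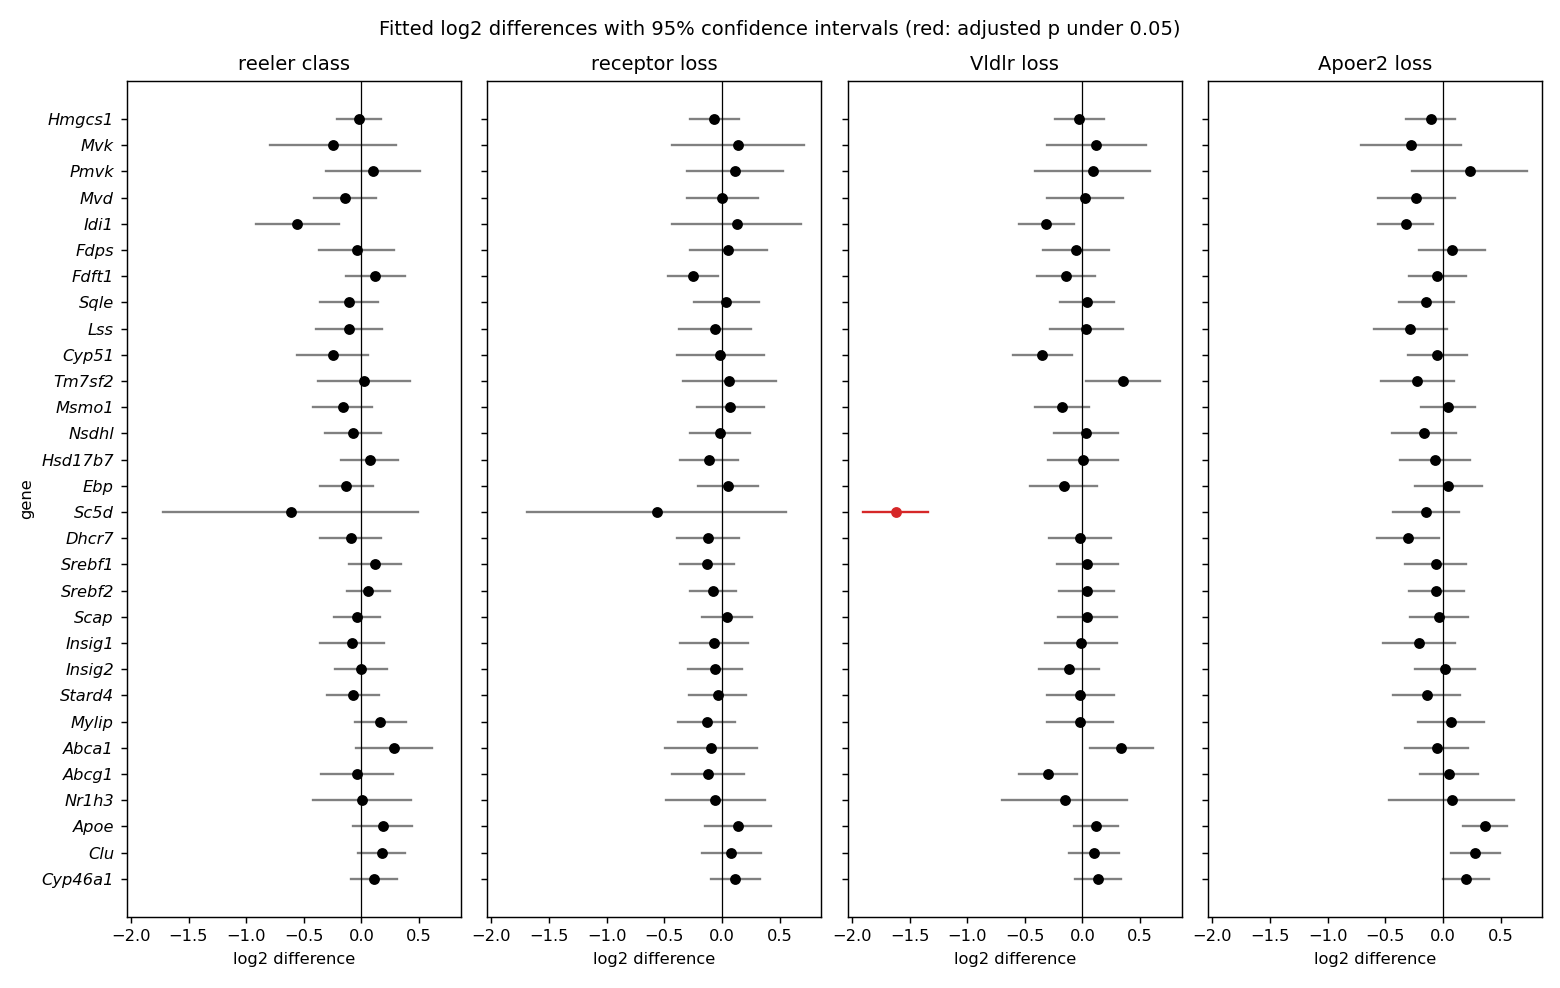
Log2 difference of each measured gene (horizontal axes) in the 4 limma comparisons (panels), with bars for the 95% confidence interval and red for an adjusted p under 0.05. Sc5d with loss of Vldlr (-1.62) is the single red point.

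The 3 reeler models were compared with WT and the single receptor knockouts. Limma called 0 of 30 members at an adjusted p of 0.05 and 0.13% of all genes, and the smallest adjusted p of a member was 0.315, that of Idi1. Idi1 was the 1 member at an unadjusted p of 0.05, against 11% of all genes. Groups did not overlap for 2 members, Idi1 lower and Mylip higher, against 17.7% of all genes, 8.67% lower and 9.04% higher. The median was -0.11 over the 17 synthesis enzymes (13 below 0) and 0.01 over all genes. It was -0.05 without WT and -0.03 without the Reln knockout. The reeler models also differed in granule cell markers, of which limma called 7 lower at an adjusted p of 0.05, and the part of this in the sterol genes was not tested. In whole tissue, fewer cells of a type and less RNA per cell cannot be told apart.

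Each mutant was also set beside WT, with no test, since each is 1 array. These 5 contrasts share the WT array, so a signal of WT enters all of them. At least a 2-fold difference was found for 1 member on the Vldlr knockout (Sc5d, 3.13-fold lower, against 0.722% of all genes and 0.478% on the lower side) and 0 on the Apoer2 knockout (0.391% of all genes). It was found for 0 members on the Dab1 knockout (1.03%), 2 on the Reln knockout (Sc5d, 3.07-fold, and Idi1, 2.19-fold lower, against 2.49% and 1.33% on the lower side) and 1 on the double knockout (Sc5d, 3.41-fold lower, against 0.931% and 0.591% on the lower side).

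The synthesis enzymes were mostly below WT on every mutant array, by small amounts. Their median difference from WT was -0.11 on the Vldlr knockout, -0.19 on the Apoer2 knockout, -0.08 on the Dab1 knockout, -0.29 on the Reln knockout and -0.13 on the double knockout. Of the 17, 12, 15, 14, 15 and 14 were below WT in that order, while between 47.5% and 50.8% of all genes were. Quantile normalization gave medians of -0.14, -0.18, -0.15, -0.31 and -0.16. The mean of all probe sets gave -0.09, -0.18, -0.08, -0.21 and -0.12, with 11, 13, 13, 14 and 12 of the 17 below WT. WT was the highest of the 6 arrays for 10 of the 30 members and the lowest for 4, and with no second WT array a property of that sample cannot be told apart from an effect of the mutations.

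Myelin markers, whose cells make much sterol, had a summed level of 36178 on WT, 29761 on the Vldlr knockout, 34685 on the Apoer2 knockout, 32532 on the Dab1 knockout, 30927 on the Reln knockout and 37430 on the double knockout. Their median difference from WT was -0.20, -0.10, -0.27, -0.37 and -0.01 on the 5 mutant arrays. All 13 measured myelin markers were below WT on the Vldlr knockout, and the dimmest of the 13, Gjb1, read 119.3 or more on every array. Astrocyte markers summed to 24201 to 26987, and their median difference from WT was -0.18, 0.01, -0.09, -0.14 and 0.01 in the same order. Single astrocyte markers went both ways. On the double knockout 6 were above and 5 below WT, from -1.12 for Aqp4 to 0.39 for Gjb6. The part of either cell type in the sterol genes was not tested.

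Genes beside the pathway were read from further lists. Of 20 fatty acid genes that SREBP activates, 19 were kept, and limma called 0 at an adjusted p of 0.05 in all 4 comparisons. At an unadjusted p of 0.05, 3 of the 19 were lower in the reeler models, where 11% of all genes passed in either direction. The median there was -0.09, with 14 of 19 below 0 (73.7%), against 48.1% of all genes. Pltp, a phospholipid transfer protein, read 1796.1, 1654.1, 1635.4, 1440.1, 927 and 1425.2 in the order WT, Vldlr, Apoer2, Dab1, Reln and double knockout, and its difference was -0.44. Acss2, which makes acetyl-CoA from acetate, differed by -0.40, and Elovl1 (0.11) and Acsl3 (0.10), an elongase and an acyl-CoA synthetase, were highest. With loss of Vldlr 15 of the 19 were below 0 (78.9%, against 48.1% of all genes). With loss of Apoer2 14 were (73.7%, against 46.8%), and with loss of a receptor 10 were (52.6%). At an unadjusted p of 0.05, 3 were lower with loss of Vldlr and 2 with loss of Apoer2, against 10.2% and 6.17% of all genes. With loss of Vldlr the lowest were Scd1, a desaturase (-0.42), and Aacs, an acetoacetyl-CoA synthetase (-0.35). The highest were Tmem97 (0.12) and Me1, malic enzyme (0.09). With loss of Apoer2 Me1 (-0.34) and Acsl3 (-0.27) were lowest, and Elovl1 (0.26) and Acly (0.07) highest. With loss of a receptor 1 of the 19 passed an unadjusted p of 0.05, against 2.26% of all genes. That gene, Acsl3, read 1648.5, 1395.7, 1303.6, 1747.1, 1738.5 and 1210.1 in the same order of arrays. The 3 arrays that lack a receptor were all below the 3 that have both, and the difference was -0.39 (SE 0.09, limma unadjusted p = 0.00220, adjusted p = 1.0). Scd1 was next lowest (-0.17), and Pltp (0.22) and Elovl6, an elongase (0.17), were highest.

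Of 35 other sterol and isoprenoid genes, 30 were kept and 0 were called at an adjusted p of 0.05 by limma in the 4 comparisons. At an unadjusted p of 0.05, 4 of the 30 passed in the reeler models (11% of all genes), 0 with loss of a receptor (2.26%), 3 with loss of Vldlr (10.2%) and 2 with loss of Apoer2 (6.17%). Abca7, a lipid transporter, read 311 on WT, 183.8 on the Vldlr knockout, 286.3 on the Apoer2 knockout, 134.3 on the Dab1 knockout, 100.8 on the Reln knockout and 99.9 on the double knockout. Lcat, which esterifies cholesterol on lipoproteins, read 411.6, 217.7, 328.6, 180.6, 111.2 and 142.5 in the same order. For both, the reeler models lay below every other array and the Vldlr knockout was the lowest of the other 3. The class differences were -1.03 for Abca7 (limma adjusted p = 0.139) and -0.99 for Lcat (adjusted p = 0.224), and those with loss of Vldlr -0.99 and -0.95 (adjusted p = 0.210 and 0.166). The granule cell marker sum followed a like order, with 15287 on WT, 12235 on the Vldlr knockout, 15115 on the Apoer2 knockout, 5274 on the Dab1 knockout, 4262 on the Reln knockout and 3872 on the double knockout, and its part in these 2 genes was not tested. The highest in the reeler models were Abca5, a transporter (0.23), and Osbp, an oxysterol binding protein (0.13).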

How the data were processed

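Total RNA of 6 samples was read on arrays of 45101 probe sets. The deposited values are linear signal intensities. The submitters' processing notes name MAS5 and Affymetrix Expression Console as the authors' tools, with versions not given in the sources used here. On every array their trimmed mean was 249.4 to 249.5. The number of arrays, 1 per genotype, limits the precision.

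Gene names came from the platform's annotation table. For a gene with several, the one of highest mean signal was used. Outside the members, one ending in _x_at was used only where no other existed, and among the members Clu is read at such a probe set. The filter, the median over probe sets, was a mean of 89.0, which 11498 of 18193 genes passed. Values entered the fits as log2(signal + 28.1), the added value being the 25th percentile, so that differences of dim genes are understated. Limma 3.58.1 in R 4.3.3 was run with a trended prior, and p-values were adjusted by Benjamini-Hochberg over the 11498 genes. The procedure was tested on simulated data with independent noise, for the return of seeded differences. That test does not bear on the use of different genotypes as replicates. Arrays of different genotypes stand in as replicates, so p-values measure only the spread between these arrays, whose RNA came from separate mice only as far as the labels say. The loss of each receptor was fitted additively on the 4 arrays of the receptor cross. A mutant against WT has no test, and 2-fold is the threshold.

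The members and lists were chosen with earlier results of these data known. All members with a probe set are named, with the 2 highest and 2 lowest genes of each further list in a comparison described, the targeted genes, and Xist and Eif2s3y. Gh was named because its value bears on 1 array. Alternatives were other pseudocounts (1 and 89.4), filters (none and 297.5), probe set rules, quantile normalization, no trend, covariates, other designs and leaving out each array. Leaving out single arrays of the receptor cross, with no term for the other receptor, was added after seeing the data. Promoters came from RefSeq windows, and no genome was used.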

Additional observations from a re-analysis of the deposited data

How the results depend on the processing

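With loss of Vldlr the count of members called was 1, and it was 0 with no filter, with the mean of all probe sets, with no trend, and with all 6 arrays and the reeler class as a term. Leaving out each array of the receptor cross, with no term for Apoer2, gave 0 to 1, the 0 being without WT. The Sc5d difference stayed between -1.74 and -1.04, with adjusted p from 0.000404 to 1.0. In the fit of all 6 arrays Idi1 changed sign, to 0.037 with loss of Vldlr and 0.027 with loss of Apoer2, from -0.31 and -0.32. The count of members 2-fold from WT on the Reln knockout was 2, and 1 with the mean of all probe sets or with the mean of WT and the single receptor knockouts as baseline. For the reeler class, receptor loss and Apoer2 loss, 0 members were called in the alternatives run. Idi1 in the reeler class ranged from -0.65 to -0.37 (adjusted p 0.283 to 0.892) and Apoe with loss of Apoer2 from 0.17 to 0.45 (adjusted p 0.203 to 1.0). The count over all genes was 15 for the reeler class (1 to 27 in alternatives) and 0 for receptor loss (0 to 2). It was 8 for Vldlr loss (1 to 103) and 4 for Apoer2 loss (0 to 16). The alternatives include a fit of all 22518 probe sets past the filter, and the 27 counts probe sets of that fit, not genes. Members at an unadjusted p of 0.05 numbered 1 to 4, 0 to 2, 1 to 6 and 0 to 5 in those comparisons. The synthesis median ranged from -0.15 to -0.03, -0.17 to 0.08, -0.12 to 0.09 and -0.18 to -0.07. The cause of each change was not tested. No paired analysis was possible because each genotype has 1 array and the number 1 on every array pairs nothing. Signal near background limits Nr1h3 and Mvk most among the members.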

Other observations

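Sorl1, a sorting receptor that binds apolipoprotein E, is the gene next to Sc5d in RefSeq's order, and was looked at after the Sc5d values had been seen. Its brightest probe set read 1391 on WT, 2211.8 on the Vldlr knockout, 1226.2 on the Apoer2 knockout, 991.1 on the Dab1 knockout, 2282.4 on the Reln knockout and 2079.9 on the double knockout. The arrays on which the brightest Sc5d probe set was low were those on which this one was high. Another Sorl1 probe set read 651.7, 290.8, 551.9, 462.4, 398.6 and 311.2 in the same order, low on the same 3 arrays as Sc5d. The remaining one read 810.6, 782, 760.2, 545.6, 932.7 and 710.9, with no such split. The differences with loss of Vldlr were 0.70, -0.93 and -0.07 (limma adjusted p = 0.0739, 0.119 and 0.857 over all probe sets). Probe sets of this 1 gene thus differed from WT in opposite directions on the same arrays. Tbcel, on the far side of Sc5d, was level, with ranges of 0.15 and 0.29 on the log2 scale at its 2 probe sets. Crtam, on the Sorl1 side, read 151.4, 92.8, 183.3, 39.5, 62 and 53.3. Ubash3b, which lies between Crtam and Sorl1, read 305.5, 382.4, 246.6, 214.7, 310.2 and 334.7 at a probe set. The Vldlr, Reln and double knockouts were its highest arrays there, and its other probe sets showed no such split. The mice were of mixed C57BL/6 and 129 background, and the strain of this stretch in each animal was not tested.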
